A study of Homo sapiens with 6 samples.

Results

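Interferon-stimulated genes were examined in T24 cells, an established line of invasive, high-grade urothelial (transitional cell) bladder cancer, after siRNA suppression of the RNA-binding protein RBM3. The members were 49 genes listed by symbol, with CGAS and RIGI read also under their older symbols MB21D1 and DDX58, and a member was kept where its mean over the 6 libraries was at least 0.5 CPM, the read count scaled to a common library size. Of the 49 listed genes, 47 were kept, among 63677 identifiers in the deposited table, and all 47 were among the 15099 genes that passed the filter of the test. IRF9, the DNA-contacting subunit of the complex that transmits the interferon signal, and IFITM1, a membrane protein that restricts viral entry, were listed at 0 in all 6 libraries. Of their exon bases, 27.2% and 31.6% overlap another annotated gene, and how reads at such places were counted is not stated, so these zeros do not show that the genes were silent.

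One group, called control, received a non-targeting siRNA, and its libraries carry the replicate numbers 1, 3 and 5. The other, called siRBM3, received the anti-RBM3 siRNAs s11858 and s11860, and its libraries carry the numbers 3, 4 and 5. Cells of both groups were transfected with 25 nM siRNA and a lipid reagent for 4.5 h and left to recover overnight, so both carried transfected siRNA, and no untransfected cells were among the libraries. The labels do not say that the libraries came from separate cultures, and p-values then measure only the spread between these libraries, which may be technical. Because the RNA came from whole cultures, fewer cells expressing a gene and less of its RNA in each cell cannot be told apart.

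Interferon-stimulated genes are the output of the innate antiviral program. Sensors of the RIG-I family and cGAS detect foreign or misplaced RNA and DNA and switch on interferon genes, and secreted interferon then signals through receptors, JAK kinases and STAT proteins to a complex that holds STAT2 and IRF9 and binds the interferon-stimulated response element (ISRE) in the promoters of the target genes. The targets include the sensors and transcription factors themselves, effectors such as the OAS and IFIT proteins that act on RNA, and ISG15, a ubiquitin-like protein with its own conjugating and removing enzymes.

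The ISRE core, searched as GAAANNGAAA on either strand, was looked for in RefSeq promoter windows of the GRCh38.p14 assembly, which run from 250 bases before to 50 bases after a gene's start. A window was found for 36 of the 47 kept members, or 76.6%, and since this is below 80% a comparison of the members' share with other genes is void and none is made. Where a gene had several windows, the window with the most cores upstream of the start was used. The shares and the stretches shown thus favour windows with a core. Over all 27305 genes with a window, 4.38% held the core, a value not to be set beside the members. The 11 kept members without an entry were DHX58, CGAS, OAS2, OASL, IFIT2, USP18, IRF7, MX2, IFITM2, PML and TRIM22. A match is a description of letters and not a bound site, and no match says only that the letters are not in the window. Shown here are stretches of 100 bases upstream of the start for the 4 members with the smallest unadjusted p among those holding a core there, in gene orientation and with each core in capitals. A core on the opposite strand reads TTTCNNTTTC, and cores may overlap.
HERC5: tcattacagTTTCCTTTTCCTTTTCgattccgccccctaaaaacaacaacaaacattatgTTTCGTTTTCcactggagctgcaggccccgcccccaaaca
ISG20: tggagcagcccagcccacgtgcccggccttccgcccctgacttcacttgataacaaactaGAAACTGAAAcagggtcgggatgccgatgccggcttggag
RSAD2: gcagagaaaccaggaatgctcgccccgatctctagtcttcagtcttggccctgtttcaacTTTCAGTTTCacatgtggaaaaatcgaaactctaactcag
PLSCR1: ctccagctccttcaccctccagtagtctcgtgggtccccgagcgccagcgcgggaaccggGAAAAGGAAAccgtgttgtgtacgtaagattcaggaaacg

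In GRCh38.p14 these stretches lie at chr4:88456985-88457084, plus strand for HERC5, chr15:88638887-88638986, plus strand for ISG20, chr2:6877572-6877671, plus strand for RSAD2 and chr3:146544647-146544746, minus strand for PLSCR1. The HERC5 stretch held 3 cores, of which 2 overlap, and the others held 1 core each. The RSAD2 stretch comes from 1 of 2 windows listed for that gene and the PLSCR1 stretch from 1 of 2. The count table itself was made on GRCh37, so these coordinates are not those of the genes given in the rest of the text.

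Library totals ranged from 23603992 to 45098612 counts, with siRBM3 replicate 3 the deepest. RBM3 was measured at 225, 367 and 300.4 CPM in control replicates 1, 3 and 5 and at 54.1, 90.0 and 58.3 CPM in siRBM3 replicates 3, 4 and 5, so the groups did not overlap (log2 fold change -2.14, SE 0.24, edgeR FDR 0.0822). The mitochondrial share of counts was 1.63%, 2.86% and 2.10% in the controls and 9.40%, 4.15% and 2.32% in siRBM3, and its part in the results was not tested. Keratins 7, 8, 18 and 19 were each above 200 CPM in every library, whereas EPCAM was at 4.89 to 6.87 CPM and CDH1 stayed below 1 CPM. KRT7, at 3096 to 3236 CPM in the controls and 2351 to 2540 CPM in siRBM3, and KRT8 were lower in siRBM3 without overlap. The same held for 9.93% of all tested genes. EPCAM, at 4.89 to 6.13 CPM in the controls and 6.21 to 6.87 CPM in siRBM3, was higher in siRBM3 without overlap. So was the urothelial marker GATA3, and 9.99% of all tested genes were separated in that direction. Of 7 urothelial markers, UPK1A, UPK1B, UPK3A, TP63 and KRT5 stayed below 1 CPM, UPK2 was between 1.13 and 1.86 CPM, and GATA3 was at 9.30 to 12.5 CPM in the controls and 13.6 to 14.2 CPM in siRBM3. Of 6 leukocyte markers only CD14 reached a mean of 1 CPM, and PTPRC, CD3E, MS4A1, ITGAM and HLA-DRA were near 0. The summed leukocyte markers ranged from 2.22 to 3.10 CPM in the controls and from 2.21 to 2.78 CPM in siRBM3. Of 3 endothelial markers, CDH5 was at 27.2 to 40.4 CPM, VWF stayed below 1 CPM and PECAM1 had no matched identifier. Of 4 fibroblast and muscle markers, COL1A1 was at 7.30 to 9.51 CPM, ACTA2 at 2.56 to 5.13 CPM and PDGFRB at 1.64 to 3.16 CPM, and DCN was near 0.

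Read one library at a time, the members differed widely among the 3 controls. The 47 members summed to 3770 CPM in control replicate 1, 4912 CPM in control replicate 3 and 7322 CPM in control replicate 5, while siRBM3 replicates 3, 4 and 5 held 3999, 4100 and 4352 CPM. In these sums control replicate 5 was well above all other libraries, control replicate 3 lay above the siRBM3 libraries, and control replicate 1 lay below them. As a share of all counts, the members made up 0.399%, 0.486% and 0.737% in the controls and 0.364%, 0.407% and 0.457% in siRBM3. By this share control replicate 1 lay within the siRBM3 range. Control replicate 5 had the highest value of the 6 libraries for 45 of the 47 members, against 15.9% of all tested genes. The exceptions were CGAS, which was highest in control replicate 3, and PML, which was highest in control replicate 1.

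Between single controls the differences were large for these genes and small for most others. The median member was 1.97-fold higher in control replicate 5 than in control replicate 1, while the median over all tested genes was 1.01-fold. At least a 2-fold excess of control replicate 5 over control replicate 1 was seen for 21 of 47 members and for 2.6% of all tested genes. Control replicate 3 exceeded control replicate 1 by a median of 1.39-fold, and by at least 2-fold for 8 members (MX1, RSAD2, CMPK2, PLSCR1, IFI6, IFI27, IFI44L and XAF1), against 3.46% of all tested genes. The 3 siRBM3 libraries lay closer together, since no member differed 2-fold between the highest and the lowest of them, whereas 9.84% of all tested genes did. The widest siRBM3 range among members was that of IFI6, at 1.90-fold.

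**Figure D1:**
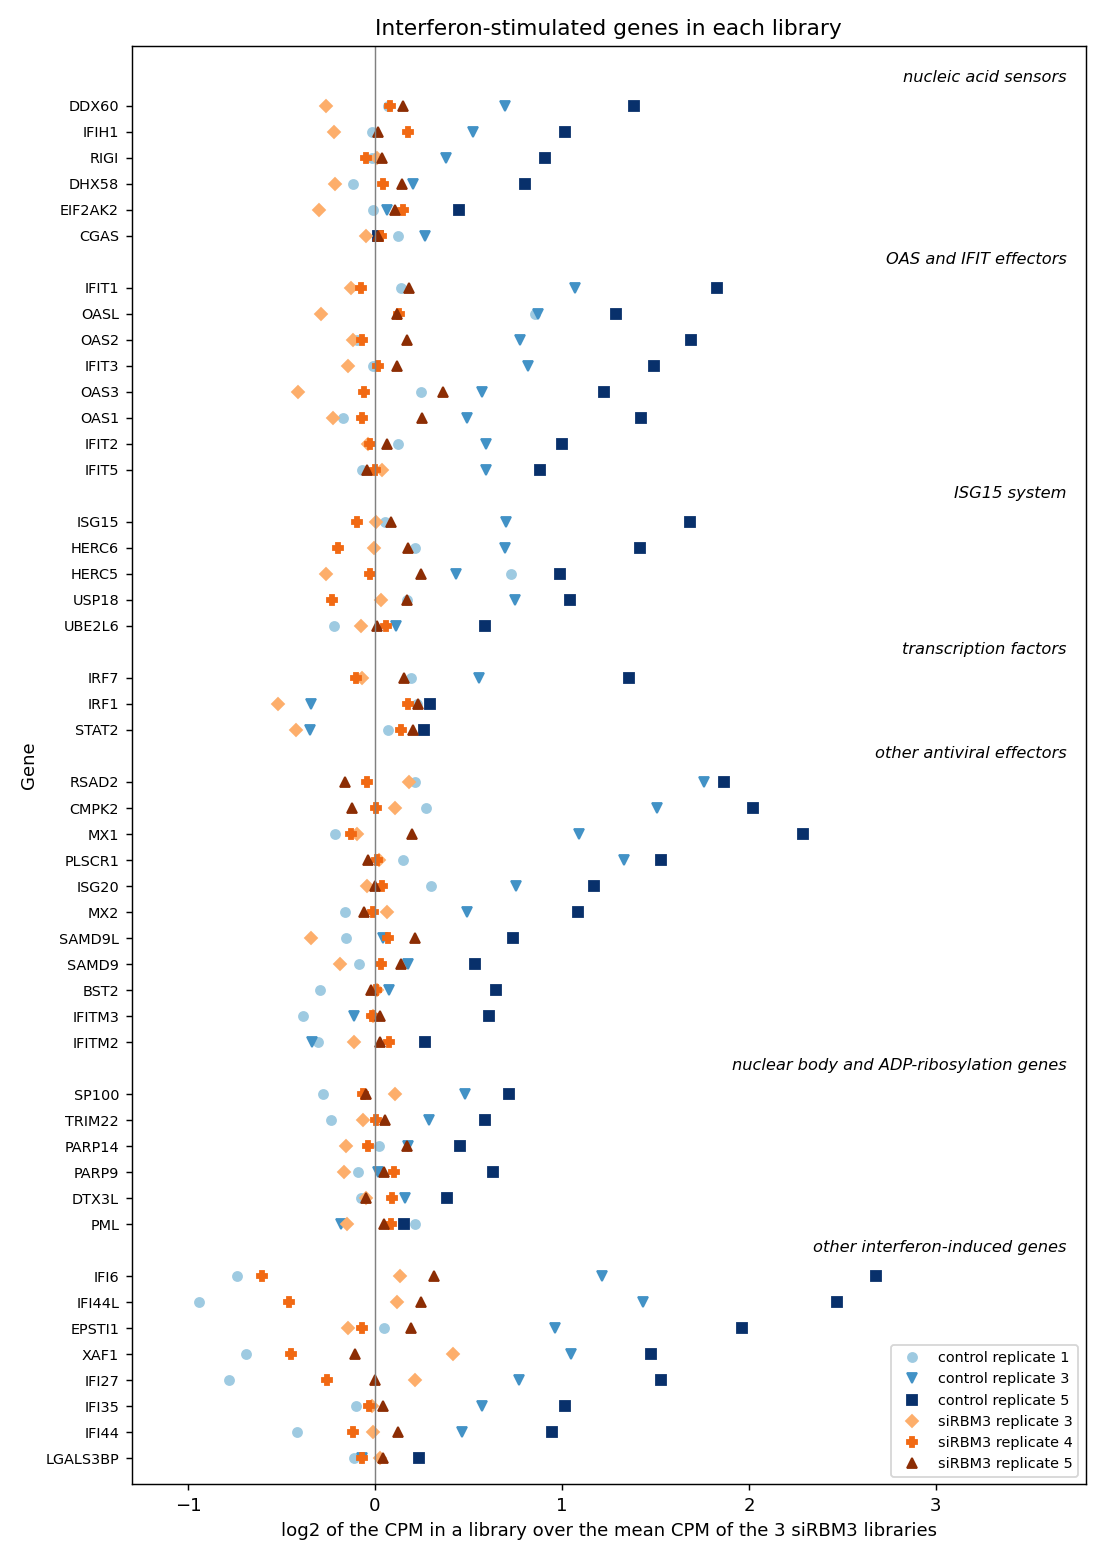
Level of each of the 47 kept interferon-stimulated genes in each library, on the x axis as the log2 of its CPM over the mean CPM of the 3 siRBM3 libraries, with genes on the y axis grouped by class and 1 point per library. Control replicate 5 (dark blue squares) is the highest point for 45 genes, and control replicate 1 (light blue circles) lies among or below the siRBM3 libraries for most of them.

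**Figure D2:**
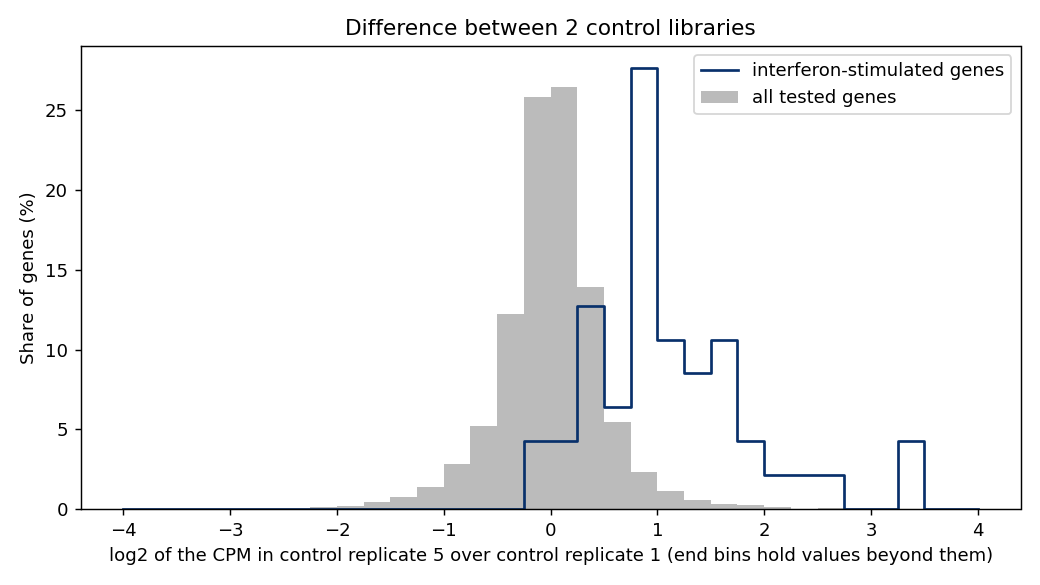
Share of genes (y axis, %) by the log2 of the CPM in control replicate 5 over control replicate 1 (x axis, bins of 0.25), with all tested genes as grey bars and the 47 kept interferon-stimulated genes as a line. The median fold was 1.97 for the members and 1.01 for all tested genes.

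Measured against the mean of the siRBM3 libraries, the median member stood at 0.988-fold in control replicate 1, 1.44-fold in control replicate 3 and 2.02-fold in control replicate 5. Control replicate 5 lay above every siRBM3 library for 46 members, control replicate 3 for 38 and control replicate 1 for 12. Over all tested genes the corresponding shares were 30.6%, 30.7% and 31.8%. Control replicate 1 lay below every siRBM3 library for 17 members, control replicate 3 for 4 and control replicate 5 for 0. The shares of all tested genes lying below were not computed, so these last counts cannot be set against all genes. By the medians and the counts lying above, how the members compared with siRBM3 differed by control library.

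In the comparison of the groups, no member reached both a 1.5-fold difference and a false discovery rate (FDR, Benjamini-Hochberg adjusted over all tested genes) below 0.01 in the edgeR quasi-likelihood test, and the share called among all tested genes was 0%. At an unadjusted p under 0.05, 21 of 47 members (44.7%) were lower in siRBM3, against 6.58% of all tested genes, and 0 were higher, against 6.56%. The log2 fold change was below 0 for 46 members, against 51.5% of all tested genes, and IFITM2 was the exception. The median log2 fold change was -0.57 over the members, from -1.63 for IFI6 to 0.10 for IFITM2, and -0.01 over all tested genes. DESeq2, with the same thresholds, called 2 members as lower, OASL (adjusted p 5.02e-05) and RSAD2 (adjusted p 0.00681), against 0.604% of the 12589 genes it gave an adjusted p, and limma-voom called 0. At an unadjusted p under 0.05, 24 members were lower by DESeq2, against 3.48% of the genes it tested. These were all genes with any count, without the filter used for edgeR and limma-voom, so that share is not like theirs. By limma-voom 15 members were lower, against 6.45%. The smallest edgeR FDR among the members was 0.0851, for OASL, the one member below 0.1, where 0.212% of all tested genes were lower.

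The libraries of the groups did not overlap for 10 members (21.3%), all lower in siRBM3, against 9.93% of all tested genes, and 0 members were separated in the other direction, against 9.99%. These 10 were OASL, IFIT2, HERC5, HERC6, USP18, IRF7, RSAD2, CMPK2, ISG20 and PLSCR1. The median log2 fold change leaned on single controls, whereas the count at p under 0.05 fell with any library left out except control replicate 1. Without control replicate 5 the median log2 fold change was -0.28, 38 members had a log2 fold change below 0, 10 were lower at p under 0.05, against 4.51% of all genes tested in that fit, and 1, IFITM2, was higher. With that library left out, 11 members were lower without overlap and 3 were higher, against 13.2% and 13.5% of all genes. Without control replicate 1 the median was -0.81, 37 members were lower at p under 0.05, against 8.64% of all genes, 37 were lower without overlap, against 18.3%, and 1, PLSCR1, was called by edgeR (FDR below 0.01). Leaving out control replicate 3 or siRBM3 replicate 3, 4 or 5 left 10, 11, 8 and 18 members lower at p under 0.05. The shares of all genes were 5.27%, 5.35%, 4.58% and 5.00%, and the medians of the members were -0.59, -0.57, -0.59 and -0.59.

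**Figure D3:**
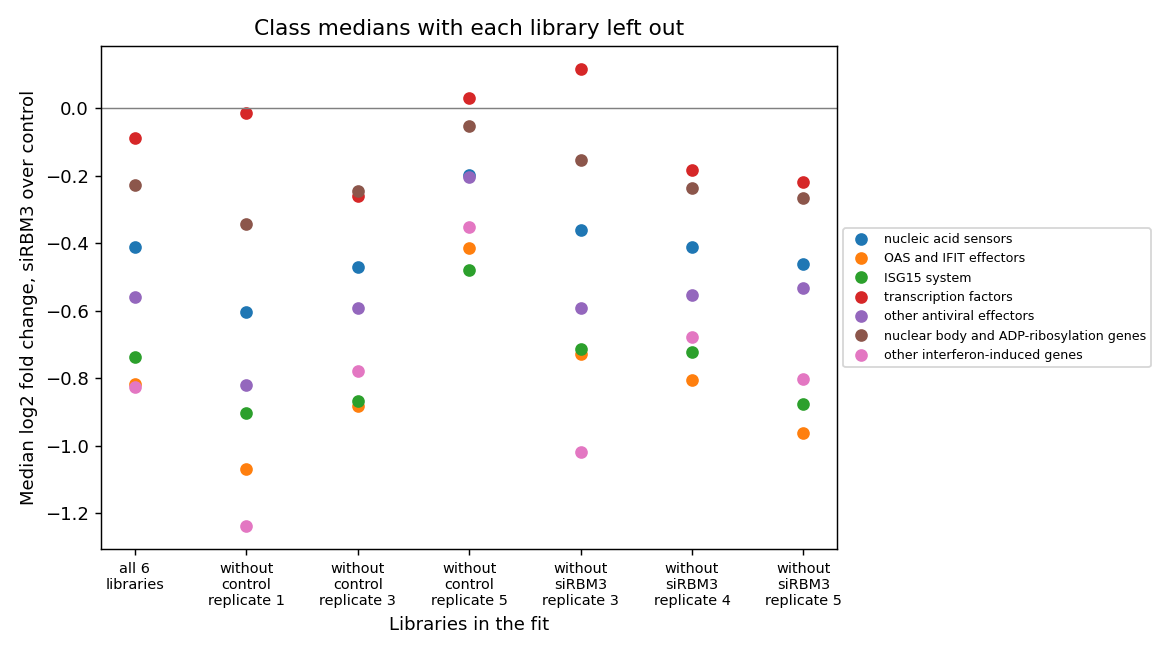
Median log2 fold change of siRBM3 over control in each class (y axis, 1 coloured point per class) with all 6 libraries and after removing each single library (x axis). Without control replicate 5 the class medians move toward 0, and without control replicate 1 those of 6 of the 7 classes move away from it.

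**Figure D4:**
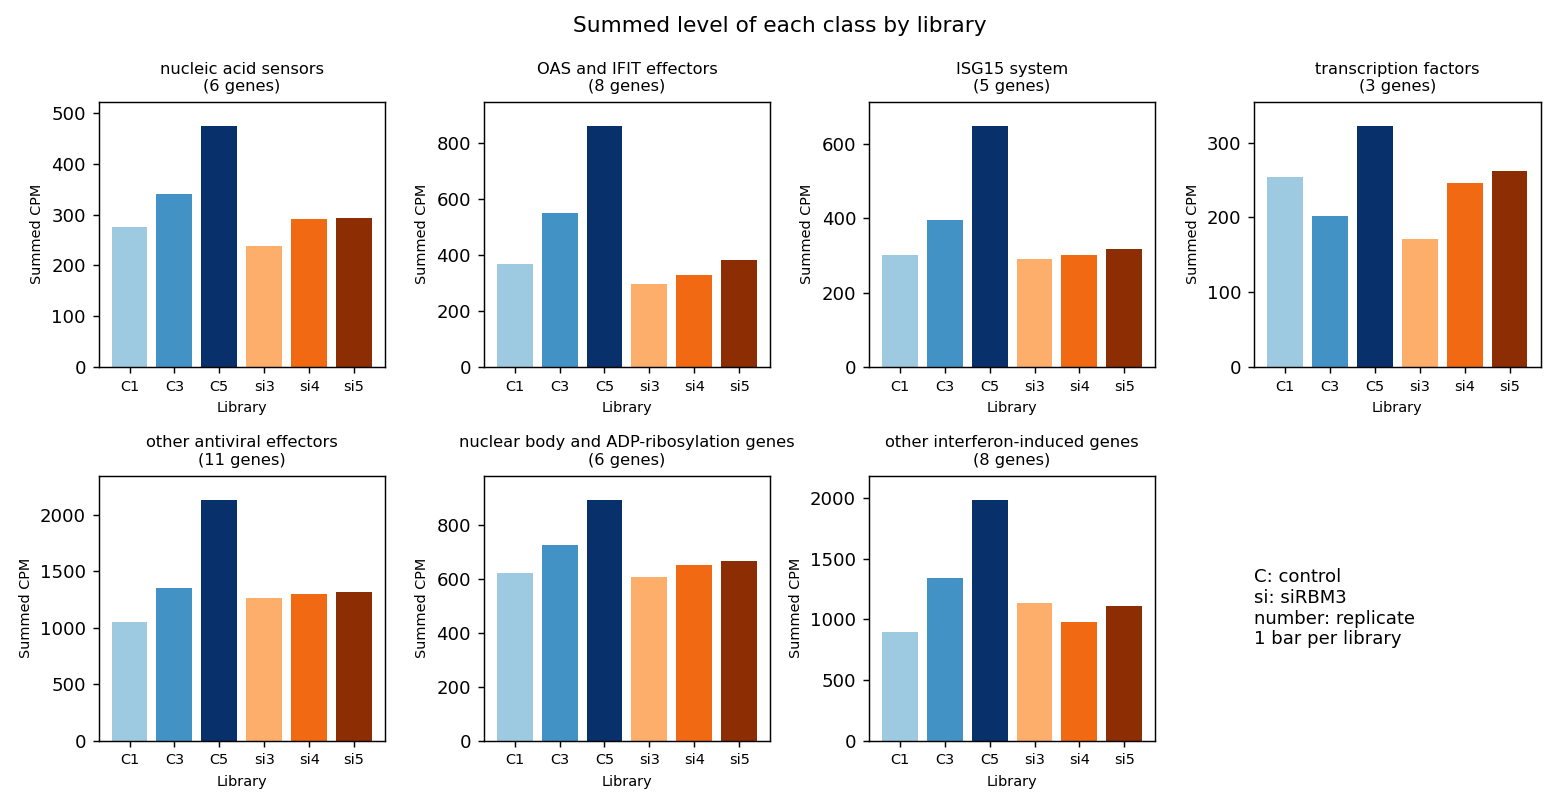
Summed CPM (y axis, from 0) of the kept genes of each class in each library (x axis; C, control, si, siRBM3, with replicate numbers), 1 panel per class and 1 bar per library. Control replicate 5 has the tallest bar in all 7 classes, while the 3 siRBM3 bars differ less from each other.

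The nucleic acid sensors were IFIH1, RIGI, DHX58, DDX60, EIF2AK2 and CGAS, and they summed to 275, 340 and 475 CPM in control replicates 1, 3 and 5, against 238, 293 and 293 CPM in siRBM3 replicates 3, 4 and 5. All 6 had a log2 fold change below 0, with a median of -0.41, and 2 of them, DDX60 and IFIH1, passed an unadjusted p of 0.05. IFIH1 encodes MDA5, the sensor of long double-stranded RNA, and was measured at 21.0, 30.5 and 43.0 CPM in control replicates 1, 3 and 5 and at 18.2, 24.0 and 21.5 CPM in siRBM3 replicates 3, 4 and 5. Control replicates 3 and 5 were above siRBM3, while control replicate 1 lay within its range (log2 fold change -0.57, SE 0.25, edgeR FDR 0.377). RIGI, the sensor of RNA with a 5′ triphosphate, stood at 47.6, 62.6 and 90.6 CPM in the controls and 48.6, 46.6 and 49.4 CPM in siRBM3, again with control replicate 1 inside the siRBM3 range (log2 fold change -0.47, SE 0.21, edgeR FDR 0.387). Of the exon bases of RIGI, 43.2% overlap another annotated gene, so its counts are uncertain.

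DHX58, which encodes LGP2, the family member that lacks the signalling domain, was at 19.3, 24.1 and 36.6 CPM in control replicates 1, 3 and 5 and at 18.1, 21.6 and 23.2 CPM in the siRBM3 libraries. Control replicate 5 stood apart, while control replicate 3 was only just above siRBM3 replicate 5 (log2 fold change -0.35, SE 0.23, edgeR FDR 0.563). DDX60, a helicase that takes part in RNA sensing, was at 50.2, 77.4 and 125 CPM in the controls and 40.0, 50.5 and 53.1 CPM in siRBM3 (log2 fold change -0.82, SE 0.30, edgeR FDR 0.317). Its control replicate 5 value was 2.49-fold that of control replicate 1, the widest control difference among the sensors. EIF2AK2 encodes PKR, the kinase that halts translation on binding double-stranded RNA, and was at 119, 125 and 163 CPM in the controls and 97.0, 133 and 129 CPM in siRBM3, where control replicates 1 and 3 lay inside the siRBM3 range (log2 fold change -0.18, SE 0.16, edgeR FDR 0.677). CGAS, the DNA sensor that makes cyclic GMP-AMP, was at 18.4, 20.3 and 17.0 CPM in the controls and 16.3, 17.2 and 17.0 CPM in siRBM3 (log2 fold change -0.14, SE 0.12, edgeR FDR 0.683). It was the one sensor whose control replicate 5 value was within the siRBM3 range.

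The OAS and IFIT effectors were all 8 lower in siRBM3 by mean, with a median log2 fold change of -0.82, and 7 of the 8 passed an unadjusted p of 0.05, OAS1 being the exception. They summed to 369, 550 and 862 CPM in control replicates 1, 3 and 5, against 297, 330 and 382 CPM in siRBM3 replicates 3, 4 and 5. The OAS enzymes make 2′-5′ oligoadenylates on binding double-stranded RNA, which activates RNase L. OAS1 (chr12:113343661-113371024), OAS3 (chr12:113375856-113414265) and OAS2 (chr12:113416200-113449528) lie side by side on GRCh37, and reads shared between these related genes may be assigned uncertainly. OAS1 was at 22.4, 35.4 and 67.5 CPM in control replicates 1, 3 and 5 and at 21.5, 24.0 and 29.9 CPM in siRBM3 replicates 3, 4 and 5 (log2 fold change -0.73, SE 0.37, edgeR FDR 0.456). OAS2 was at 36.6, 67.0 and 127 CPM in the controls and 36.1, 37.3 and 44.1 CPM in siRBM3 (log2 fold change -0.97, SE 0.39, edgeR FDR 0.355). OAS3 was at 100, 125 and 197 CPM in the controls and 63.5, 81.0 and 108 CPM in siRBM3 (log2 fold change -0.74, SE 0.28, edgeR FDR 0.321). For each of these genes control replicates 3 and 5 exceeded all siRBM3 libraries and control replicate 1 did not.

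OASL, an OAS-like protein without synthetase activity that enhances RIG-I signalling, differed from its relatives in its controls. It was at 37.9, 38.4 and 51.2 CPM in control replicates 1, 3 and 5 and at 17.2, 23.0 and 22.8 CPM in siRBM3 replicates 3, 4 and 5, so that every control exceeded every siRBM3 library. Its controls differed by 1.35-fold between replicates 5 and 1, whereas those of OAS2 differed by 3.46-fold. The mean of siRBM3 was 0.553 of control replicate 1 alone (log2 fold change -1.02, SE 0.17, edgeR FDR 0.0851). With 1 library left out in turn, its log2 fold change stayed between -0.87 and -1.10. OASL lies at chr12:121455566-121477049, apart from the OAS1 to OAS3 cluster on the same chromosome.

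The IFIT proteins bind foreign RNA and block its translation, and their genes form a cluster on chromosome 10, from IFIT2 (chr10:91043451-91069028) to IFIT5 (chr10:91174325-91181362) on GRCh37. IFIT1 was at 33.3, 63.5 and 107 CPM in the controls and 27.7, 28.8 and 34.3 CPM in siRBM3 (log2 fold change -1.17, SE 0.37, edgeR FDR 0.263). Its control replicate 1 value fell within the siRBM3 range and its control replicate 5 value was 3.23-fold that of control replicate 1. IFIT2 was at 47.1, 65.4 and 86.7 CPM in the controls and 42.1, 42.4 and 45.2 CPM in siRBM3, and the groups did not overlap, though control replicate 1 was close to siRBM3 (log2 fold change -0.62, SE 0.20, edgeR FDR 0.256). IFIT3, the partner that stabilises IFIT1, was at 54.6, 97.0 and 154 CPM in the controls and 49.6, 55.5 and 59.6 CPM in siRBM3 (log2 fold change -0.89, SE 0.33, edgeR FDR 0.316). IFIT5 was at 36.6, 57.9 and 70.8 CPM in the controls and 39.4, 38.4 and 37.3 CPM in siRBM3 (log2 fold change -0.52, SE 0.21, edgeR FDR 0.353). Control replicate 1 was the lowest of the 6 libraries for IFIT5 and lay within the siRBM3 range for IFIT3. Of the exon bases of IFIT2, 13.6% overlap another gene.

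The ISG15 system covers the ubiquitin-like modifier ISG15, its conjugating enzyme UBE2L6, the ligase HERC5, the related HERC6, and the protease USP18 that removes ISG15. The 5 genes summed to 301, 397 and 649 CPM in control replicates 1, 3 and 5, against 292, 301 and 317 CPM in siRBM3 replicates 3, 4 and 5. Their median log2 fold change was -0.74, and 4 of the 5 passed an unadjusted p of 0.05, all but UBE2L6. ISG15 was at 99.2, 155 and 307 CPM in control replicates 1, 3 and 5 and at 95.8, 89.4 and 102 CPM in siRBM3 replicates 3, 4 and 5, with control replicate 1 inside the siRBM3 range (log2 fold change -0.97, SE 0.36, edgeR FDR 0.322). UBE2L6 was at 143, 181 and 251 CPM in the controls and 158, 174 and 168 CPM in siRBM3 (log2 fold change -0.20, SE 0.18, edgeR FDR 0.694). Here control replicate 1 was the lowest of the 6 libraries and control replicate 5 the highest.

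The 3 remaining genes of the system did not overlap between the groups. HERC5, the main human ISG15 ligase (chr4:89378270-89427314), was at 35.9, 29.2 and 43.0 CPM in the controls and 18.1, 21.2 and 25.7 CPM in siRBM3 (log2 fold change -0.74, SE 0.18, edgeR FDR 0.170). Its controls differed by 1.20-fold between replicates 5 and 1, but its lowest control was replicate 3, at 0.815 of control replicate 1. As for OASL, the siRBM3 mean of HERC5 was below each control, at 0.604 of control replicate 1. Control replicate 3 of HERC5 was 1.35-fold that mean. HERC6, its neighbour (chr4:89299891-89364249), was at 16.1, 22.5 and 37.0 CPM in the controls and 13.8, 12.1 and 15.7 CPM in siRBM3 (log2 fold change -0.86, SE 0.28, edgeR FDR 0.266). USP18, which also dampens receptor signalling, was at 6.06, 9.02 and 11.1 CPM in the controls and 5.50, 4.58 and 6.05 CPM in siRBM3 (log2 fold change -0.69, SE 0.24, edgeR FDR 0.279). In both HERC6 and USP18 the margin between control replicate 1 and the highest siRBM3 library was narrow. HERC5 is the gene shown above with 3 ISRE cores.

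Among the transcription factors, IRF7 stood apart from STAT2 and IRF1. IRF7, which drives the interferon alpha genes and is itself induced by interferon, was at 39.8, 51.3 and 89.5 CPM in control replicates 1, 3 and 5 and at 33.3, 32.5 and 38.9 CPM in siRBM3 replicates 3, 4 and 5, without overlap (log2 fold change -0.79, SE 0.27, edgeR FDR 0.286). For IRF7, control replicate 1 was only just above siRBM3 replicate 5. STAT2, a subunit of the ISRE-binding complex, was at 88.3, 65.9 and 101 CPM in the controls and 62.7, 92.6 and 96.7 CPM in siRBM3 (log2 fold change -0.02, SE 0.20, edgeR FDR 0.977). IRF1, an activator induced most strongly by interferon gamma, was at 125, 84.5 and 132 CPM in the controls and 74.9, 121 and 126 CPM in siRBM3 (log2 fold change -0.09, SE 0.23, edgeR FDR 0.907). For STAT2 and IRF1 the lowest control was replicate 3 and the lowest siRBM3 library was also replicate 3, and the groups overlapped. The class median was -0.09, and it was above 0 without control replicate 5 (0.03) and without siRBM3 replicate 3 (0.12). Of the exon bases of IRF1, 22.9% overlap another gene.

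The other antiviral effectors were MX1, MX2, RSAD2, CMPK2, ISG20, BST2, IFITM2, IFITM3, PLSCR1, SAMD9 and SAMD9L, 11 genes with a median log2 fold change of -0.56, of which 5 (MX1, RSAD2, CMPK2, ISG20 and PLSCR1) passed an unadjusted p of 0.05. Their sum was 1054, 1356 and 2137 CPM in control replicates 1, 3 and 5, against 1263, 1303 and 1319 CPM in siRBM3 replicates 3, 4 and 5. ISG20, an exonuclease that degrades viral RNA, was at 23.2, 31.8 and 42.5 CPM in the controls and 18.3, 19.4 and 18.8 CPM in siRBM3, without overlap (log2 fold change -0.79, SE 0.20, edgeR FDR 0.180). RSAD2, which encodes viperin, was at 4.75, 13.9 and 15.0 CPM in the controls and 4.65, 3.99 and 3.67 CPM in siRBM3 (log2 fold change -1.44, SE 0.39, edgeR FDR 0.202). Control replicates 3 and 5 of RSAD2 stood together, while control replicate 1 was just above the highest siRBM3 library. Its neighbour CMPK2, a mitochondrial nucleotide kinase, had a log2 fold change of -1.43 (SE 0.40), and the scramblase PLSCR1 one of -1.12 (SE 0.31), both without overlap. Here too control replicate 1 was close to the highest siRBM3 library, at 2.75 against 2.46 CPM for CMPK2 and 46.1 against 42.2 CPM for PLSCR1. MX1, a GTPase that blocks viral nucleocapsids, had a control replicate 5 value 5.68-fold that of control replicate 1.

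The most abundant genes of the class had log2 fold changes nearer 0. IFITM3, which blocks viral fusion in endosomes, was at 509, 617 and 1016 CPM in control replicates 1, 3 and 5 and at 660, 660 and 678 CPM in siRBM3 replicates 3, 4 and 5 (log2 fold change -0.10, SE 0.23, edgeR FDR 0.885). BST2, or tetherin, which holds budding virions at the cell surface, was at 143, 185 and 275 CPM in the controls and 177, 176 and 173 CPM in siRBM3 (log2 fold change -0.20, SE 0.21, edgeR FDR 0.743). In both, control replicate 5 was the highest library and control replicate 1 the lowest, with siRBM3 between them. IFITM2, named here because it was the one member with a log2 fold change above 0, had a value of 0.10 (SE 0.16, edgeR FDR 0.845), and its near-identical sequence to IFITM3 makes the counts of both uncertain.

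The nuclear body and ADP-ribosylation genes were PML, SP100, TRIM22, PARP9, PARP14 and DTX3L, and none of the 6 passed an unadjusted p of 0.05. Their log2 fold changes ran from -0.36 to -0.07, with a median of -0.23. SP100, a nuclear body protein, was at 79.7, 135 and 159 CPM in the controls and 104, 92.5 and 93.4 CPM in siRBM3 (log2 fold change -0.36, SE 0.22, edgeR FDR 0.534). PARP14, an ADP-ribosyltransferase, was at 179, 200 and 242 CPM in the controls and 158, 172 and 199 CPM in siRBM3 (log2 fold change -0.23, SE 0.14, edgeR FDR 0.517). DTX3L, the ubiquitin ligase partner of PARP9, was at 89.8, 105 and 123 CPM in the controls and 91.5, 100 and 91.4 CPM in siRBM3 (log2 fold change -0.17, SE 0.13, edgeR FDR 0.618). In these 3 genes control replicate 5 was highest and control replicate 1 lay within or below the siRBM3 range. PARP9 (chr3:122246771-122283424) and DTX3L (chr3:122283185-122294050) overlap at their 5′ ends on GRCh37, and PARP14 (chr3:122399686-122449687) lies beyond DTX3L.

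The other interferon-induced genes were IFI6, IFI27, IFI35, IFI44, IFI44L, XAF1, EPSTI1 and LGALS3BP, and 2 of them, IFI6 and IFI44L, held the widest control differences of the 47 members. Control replicate 5 exceeded control replicate 1 by 10.7-fold for IFI6, 10.7-fold for IFI44L, 4.95-fold for IFI27 and 4.49-fold for XAF1. For these 4 genes the siRBM3 mean was above control replicate 1, by 1.67-fold, 1.92-fold, 1.72-fold and 1.62-fold, although their log2 fold changes were -1.63, -1.55, -0.79 and -0.86. Large fitted differences and wide control spread thus came together, and none of the 4 passed an unadjusted p of 0.05. Of the exon bases of XAF1 38.3% overlap another gene, and of IFI6 23.1%.

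IFI6, a small membrane protein with antiviral activity, was at 18.5, 71.4 and 197 CPM in control replicates 1, 3 and 5 and at 33.8, 20.2 and 38.4 CPM in siRBM3 replicates 3, 4 and 5 (log2 fold change -1.63, SE 0.72, edgeR FDR 0.396). EPSTI1 was at 10.7, 20.2 and 40.4 CPM in the controls and 9.37, 9.87 and 11.9 CPM in siRBM3 (log2 fold change -1.20, SE 0.43, edgeR FDR 0.306). IFI35 was at 37.9, 60.5 and 82.3 CPM in the controls and 40.2, 39.7 and 41.9 CPM in siRBM3 (log2 fold change -0.57, SE 0.24, edgeR FDR 0.374). Control replicates 3 and 5 were above all siRBM3 libraries for IFI6, EPSTI1 and IFI35, and control replicate 1 was not. The last 2 were the class members past an unadjusted p of 0.05. LGALS3BP, a secreted galectin-binding glycoprotein, was at 651, 670 and 828 CPM in the controls and 716, 671 and 726 CPM in siRBM3 (log2 fold change -0.02, SE 0.12, edgeR FDR 0.949), so the groups overlapped.

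Levels of different genes were compared per exon length, as TPM (counts divided by exon length and scaled to the same total in each library) averaged over the 6 libraries. IFITM3 was highest at 945 TPM, followed by LGALS3BP at 810, BST2 at 665, ISG15 at 641, IFITM2 at 598 and UBE2L6 at 339 TPM, and the ranges of neighbours in this order overlapped. The lowest were USP18 at 6.76, RSAD2 at 5.29 and CMPK2 at 3.78 TPM. Among the sensors EIF2AK2 was highest at 45.5 TPM and DDX60 lowest at 15.0 TPM. Within the ISG15 system, the modifier and its conjugating enzyme stood far above HERC5 (24.1 TPM), HERC6 (13.3 TPM) and the protease.

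**Figure D5:**
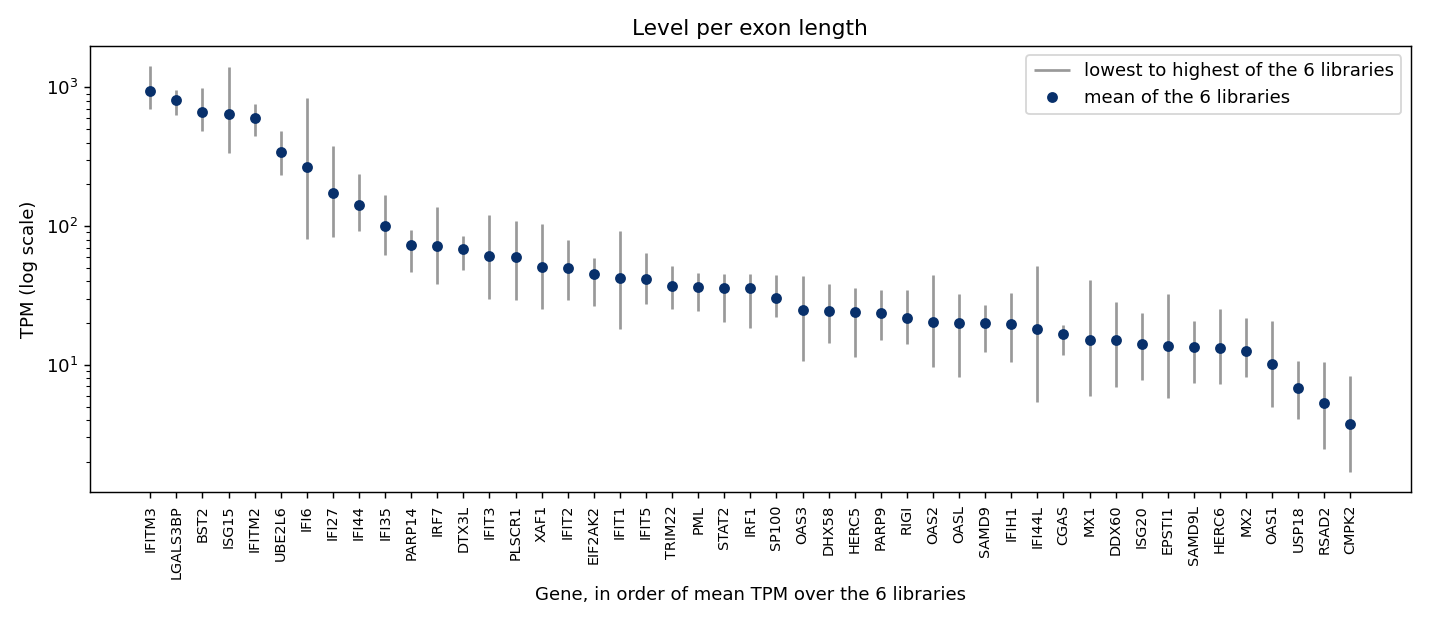
Level per exon length of the 47 kept genes (y axis, TPM, log scale) in order of their mean (x axis), with the mean of the 6 libraries as a point and the lowest to highest library as a line. The means run from 945 TPM for IFITM3 to 3.78 TPM for CMPK2, and IFI6 and IFI44L have among the longest lines.

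The rest of the pathway, a list of 45 ligands, receptors, kinases, adaptors, regulators and interferon gamma targets that held no member, was read beside these genes, and 27 of the 45 were tested. Of 14 interferon genes, 11 were at 0 counts in all libraries, and the others, IFNB1, IFNL1 and IFNL3, had 5, 12 and 1 counts over all 6 libraries, which is too few to compare. At an unadjusted p under 0.05, 3 of the 27 tested genes were lower (IFNGR2, TYK2 and TRIM25) and 0 higher, against 6.58% and 6.56% of all tested genes, with edgeR FDRs of 0.355, 0.372 and 0.271. TRIM25, the ligase that activates RIG-I, was at 136, 188 and 150 CPM in control replicates 1, 3 and 5 and at 129, 118 and 118 CPM in siRBM3 replicates 3, 4 and 5 (log2 fold change -0.38, SE 0.13, edgeR FDR 0.271).

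IFNAR1, a chain of the receptor for type I interferon, was at 41.9, 54.9 and 55.6 CPM in the controls and 67.3, 55.4 and 54.9 CPM in siRBM3 (log2 fold change 0.22, SE 0.14, edgeR FDR 0.552). IFNAR2, its partner, was at 4.30, 3.52 and 3.35 CPM in the controls and 4.07, 3.75 and 4.39 CPM in siRBM3 (log2 fold change 0.13, SE 0.19, edgeR FDR 0.824). The chains of the interferon gamma receptor had log2 fold changes of -0.20 for IFNGR1 and -0.34 for IFNGR2, which was at 70.1, 88.2 and 95.9 CPM in the controls and 72.0, 70.2 and 59.0 CPM in siRBM3. Those of the interferon lambda receptor had log2 fold changes of -0.11 for IFNLR1 and 0.00 for IL10RB. Control replicate 1 was the lowest library for IFNAR1 and the highest for IFNLR1.

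STAT3 was at 213, 255 and 236 CPM in the controls and 202, 204 and 204 CPM in siRBM3 (log2 fold change -0.21, SE 0.09, edgeR FDR 0.400). The kinase TYK2 had a log2 fold change of -0.30 (SE 0.13), whereas JAK1 had 0.14 (SE 0.08) and JAK2 0.09 (SE 0.13). None of the 6 negative regulators and none of the 3 tested interferon gamma targets, GBP1, GBP2 and IDO1, passed an unadjusted p of 0.05.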

How the data were processed

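RNA from 6 libraries of T24 cells was sequenced by the authors with a stranded mRNA kit (single end, 75 bp). The deposited values are whole-number counts per Ensembl gene, not normalized, which the authors made by trimming with BBDuk, alignment to hg19/GRCh37 with STAR, marking of duplicates with Picard and counting with featureCounts. Not given in the sources used here were the annotation release, the strand setting and the use of marked duplicates. Without the strand setting, reads of overlapping genes cannot be told apart.

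The members, their classes and the other lists were chosen with earlier results of these data known, and OASL and HERC5 had been seen among the study's own named genes. Groups and replicate numbers come from the sample labels. Identifiers were matched to symbols, places and exon lengths on GRCh37 through GENCODE 44 (55665 of 63677 matched), and exon overlaps were found with bedtools 2.31.1. Genes were filtered with filterByExpr (minimum count 10, minimum total count 15), scaled with TMM and tested with edgeR 4.0.16 (quasi-likelihood, older and robust form) over all 15099 genes, with Benjamini-Hochberg adjustment. CPM are TMM-scaled, and TPM were computed from the counts and exon lengths. SE were taken as the absolute log2 fold change over the square root of F. Alternatives on the same counts used DESeq2 1.42.0 or voom from limma 3.58.1, in R 4.3.3. The scripts were tested on simulated data.

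Every kept member was named in its class. A gene of the pathway list is counted but not reported here. Values in every library were given for the sensors, OAS and IFIT genes, ISG15 system and transcription factors, and in each other class for the 2 genes with the highest TPM and the 2 with the smallest p. Intervals were not given for counts, whose precision follows from totals of 23603992 to 45098612. Replicates differed by a chi-square of 27.7 to 141 for each degree of freedom, so none was a repeat deposit.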

Additional observations from a re-analysis of the deposited data

How the results depend on the processing

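Every alternative tried kept the median log2 fold change of the members below 0, and RBM3 stayed lower at p under 0.05 in all 13 of its alternatives. With RLE factors or library sizes alone, 46 of the 47 members had a log2 fold change below 0. The number of members called was 0 with edgeR and 2 with DESeq2, 8 with no filter on low counts (OASL, IFIT2, HERC5, HERC6, IRF7, RSAD2, CMPK2 and ISG20) and 19 with the replicate number as a block, and with 1 library left out in turn it was 0 to 1. The members lower at p under 0.05 numbered 39 with the block, where 13.5% of all genes were lower against 6.58% without it, and 8 to 37 with 1 library left out, and the members higher at p under 0.05 numbered 0 to 1. Of the pathway genes, 5 passed p under 0.05 with no filter and 9 with the block, against 3, and 0 to 5 did so with 1 library left out. For these pathway counts, and for the members called with no filter or with the block, the shares of all genes are not given here. Those counts thus cannot be set against all genes. With 1 library left out, 10 to 37 members were lower in siRBM3 without overlap, against 13.2% to 18.3% of all genes. Members higher in siRBM3 without overlap numbered 3 without control replicate 5, against 13.5% of all genes, and 0 with any other library left out. The cause was not tested for the filter or the block, and the leave-one-out fits have fewer samples.

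The groups share the numbers 3 and 5. Deviations from the group means correlated at 0.53 for number 3 and 0.088 for number 5, each the highest of the correlations of that control with the siRBM3 libraries. The labels name no shared batch, and 2 shared numbers are too few to settle whether they pair the samples, so the block is given only as an alternative. It leaves control replicate 1 and siRBM3 replicate 4 without a partner, each fitted by its own block term. The group difference with the block thus rests on numbers 3 and 5 alone and does not use control replicate 1. The block terms also leave little data to measure the spread between libraries. Counts and p-values with the block are thus not like those without it. With the block the median was -0.78, against -0.81 in the fit without control replicate 1. With 3 libraries per group, single differences under the control spread are not detectable, and USP18, RSAD2 and CMPK2 rest on the lowest levels.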
